A study of Mus musculus with 12 samples.

Results

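The 32 genes described here make, move, store and export cholesterol or regulate these steps. They were followed through reprogramming of mouse fibroblasts towards pluripotency. The rule names them by symbol, matched through the Ensembl IDs of GENCODE M21, and uses no measured value, though the list was drawn up with earlier results of these data known. All 32 were found among the 40384 gene IDs of the table. They fall into 18 synthesis enzymes, 5 regulators of the SREBP factors, 4 genes of uptake, transport and storage, and 5 genes of efflux and the LXR receptors. No lipoprotein receptor is a member, so import into the cell is not covered by the group named for uptake, transport and storage.

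Polyadenylated RNA was sequenced from 12 libraries in 4 groups of 3. The iPSC group holds induced pluripotent stem cells. The D4_DUX group holds 4F2A fibroblasts at day 4 of reprogramming with the treatment OE-DUX, in which DUX was overexpressed for 48 h. The D4 group holds 4F2A fibroblasts at day 4 that carry OE-NC, the control treatment. The MEF group holds embryonic fibroblasts of the same 4F2A line. 4F2A cells carry a doxycycline-inducible cassette of Oct4, Sox2, Klf4 and c-Myc, so the D4_DUX, D4 and MEF groups all carry it. The fibroblasts came from male homozygous 4F2A embryos at 13.5 dpc. A single culture text with LIF and doxycycline at 2 μg/mL is attached to every sample, and it does not say which groups received the drug. No age, passage or clone is given for the iPSC line, nor whether the 3 libraries of a group are separate cultures. The p-values measure the spread between these libraries, which may be technical.

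Depth was 22530000 to 28130000 counted fragments per library, estimated from the steps between low values. The values are FPKM, counted fragments scaled to transcript length and library total. Comparisons between libraries rest on that total, and members whose call or sign changed under other scalings are given below. Comparisons between genes are limited where members share exon sequence with other genes. The floor of 3 fragments, which covers counting error only, was at most 0.0529 FPKM for Nr1h3, whose lowest value of 0.525 FPKM was the lowest of any member. Duxf3, the mouse Dux gene, was listed at 0 FPKM in all 3 D4_DUX libraries, against 0 to 0.00747 FPKM in D4 libraries, so D4_DUX is used here as the libraries' label only. The 10 pluripotency markers summed to 1332 to 1479 FPKM in iPSC libraries, and each was below 1 FPKM in the other groups. The 10 fibroblast markers summed to 740.3 to 977.2 FPKM in iPSC libraries, 2436 to 2514 in D4_DUX, 3229 to 3346 in D4 and 5997 to 6125 in MEF, with none at 0 in any group. The 17 macrophage markers summed to 186.6 to 229.4 FPKM in iPSC libraries, 52.43 to 54.44 in D4_DUX, 204.9 to 245.6 in D4 and 1765 to 1804 in MEF, also with none at 0. In bulk RNA such as this, fewer cells of a type and less RNA per cell cannot be told apart.

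Animal cells keep membrane cholesterol within narrow bounds by opposing programmes. When sterol is scarce in the endoplasmic reticulum, the escort protein SCAP releases the precursor of SREBP2 from its INSIG anchors, and the processed factor switches on the enzymes of synthesis and the lipoprotein receptors. When sterol is plentiful, oxysterols activate the LXR receptors, which switch on the exporters ABCA1 and ABCG1 and the ubiquitin ligase MYLIP, which degrades lipoprotein receptors. Fibroblasts and macrophages both carry these programmes, and macrophages are known for a strong LXR-driven efflux.

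RefSeq promoter windows of GRCm38.p6, from 250 bases before to 50 bases after the start, were given for 26 of the 32 genes. Fdps, Fdft1, Sqle, Stard4, Npc1 and Abcg1 had none. Pmvk, Dhcr7, Srebf1, Insig2, Scap and Nr1h3 had several, for different starts, and a gene counts below as holding a motif where any of its windows does. The windows of 4 genes are shown: an entry enzyme of the pathway that holds the sterol element, the enzyme with the largest change in the D4_DUX libraries, the SREBP anchor that SREBP itself induces, and the main exporter. They are Hmgcs1 at chr13:119690101-119690400 on the plus strand, Msmo1 at chr8:64733529-64733828 on the minus strand, Insig1 at chr5:28071162-28071461 on the plus strand, and Abca1 at chr4:53159846-53160145 on the minus strand. Capitals mark, on either strand, the sterol regulatory element core TCACNCCAC or its shorter form CACNCCAC, the CCAAT box bound by NF-Y, and the GC box GGGCGG bound by SP factors.
Hmgcs1: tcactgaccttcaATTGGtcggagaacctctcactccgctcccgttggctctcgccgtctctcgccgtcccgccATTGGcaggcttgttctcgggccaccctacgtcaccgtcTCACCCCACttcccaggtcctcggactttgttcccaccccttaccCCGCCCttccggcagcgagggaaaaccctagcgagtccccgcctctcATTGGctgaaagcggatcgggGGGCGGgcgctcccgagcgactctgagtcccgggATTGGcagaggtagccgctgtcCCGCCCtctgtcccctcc
Msmo1: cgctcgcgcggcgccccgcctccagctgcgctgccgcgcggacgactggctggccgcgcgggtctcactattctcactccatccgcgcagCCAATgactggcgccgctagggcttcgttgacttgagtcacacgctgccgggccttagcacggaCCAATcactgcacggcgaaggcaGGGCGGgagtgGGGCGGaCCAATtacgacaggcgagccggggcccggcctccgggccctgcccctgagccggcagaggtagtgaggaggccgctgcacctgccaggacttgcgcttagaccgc
Insig1: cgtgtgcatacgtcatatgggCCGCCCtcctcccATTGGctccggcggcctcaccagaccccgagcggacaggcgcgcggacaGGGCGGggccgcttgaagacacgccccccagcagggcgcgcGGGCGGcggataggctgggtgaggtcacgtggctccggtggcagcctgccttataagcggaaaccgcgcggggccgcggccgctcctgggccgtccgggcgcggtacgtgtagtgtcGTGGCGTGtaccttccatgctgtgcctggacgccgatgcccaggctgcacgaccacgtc
Abca1: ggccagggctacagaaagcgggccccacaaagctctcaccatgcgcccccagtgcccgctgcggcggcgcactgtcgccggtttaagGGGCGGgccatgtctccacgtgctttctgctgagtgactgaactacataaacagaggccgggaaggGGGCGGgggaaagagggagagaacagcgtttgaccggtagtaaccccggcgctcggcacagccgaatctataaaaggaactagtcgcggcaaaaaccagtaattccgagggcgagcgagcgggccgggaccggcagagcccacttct

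The core TCACNCCAC, within which the shorter form lies, was found for 1 of 15 synthesis genes, Hmgcs1, at position -137 from the start, against 1.44% of the 27025 genes with a window. The shorter form CACNCCAC, added after the first search had been seen, was found for Acat2, Hmgcs1 and Insig1, 3 of 26 genes against 7.12% of all. A CCAAT box was found for 14 of 15 synthesis genes, all but Acat2, and for 1 of 4 efflux and LXR genes, Mylip, against 41.1% of all genes. A GC box was found for 14 of 15 synthesis genes, all but Pmvk, and for 2 of 4 efflux and LXR genes, Abca1 and Mylip, against 38.2% of all genes. These are matches of letters, and binding was not measured.

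Over the 4 groups, summed synthesis levels were lowest in iPSC and highest in MEF, while the exporter Abca1 was highest in D4_DUX. The 18 enzymes summed to 140.6, 141.5 and 145.9 FPKM in iPSC libraries, to 192.5, 190.9 and 185.9 in D4_DUX, to 248.7, 234.8 and 254 in D4, and to 295.4, 277.8 and 307.3 in MEF. No pair of groups overlapped in this sum. The 5 efflux and LXR genes summed to 32.7 to 32.9 FPKM in iPSC libraries, 81.28 to 87.19 in D4_DUX, 68.13 to 73.85 in D4 and 66 to 68.54 in MEF. That sum had another order than the synthesis sum: the D4 and MEF libraries overlapped, and the D4_DUX libraries lay above both. Abca1 weighed most in the D4_DUX sum, at 49.1 FPKM on average, against 35 FPKM in D4. The receptor Nr1h2 added 25.9 and 24.1 FPKM. Nr1h3 was higher in D4_DUX than in D4, and Abcg1 and Mylip were lower.

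**Figure D1:**
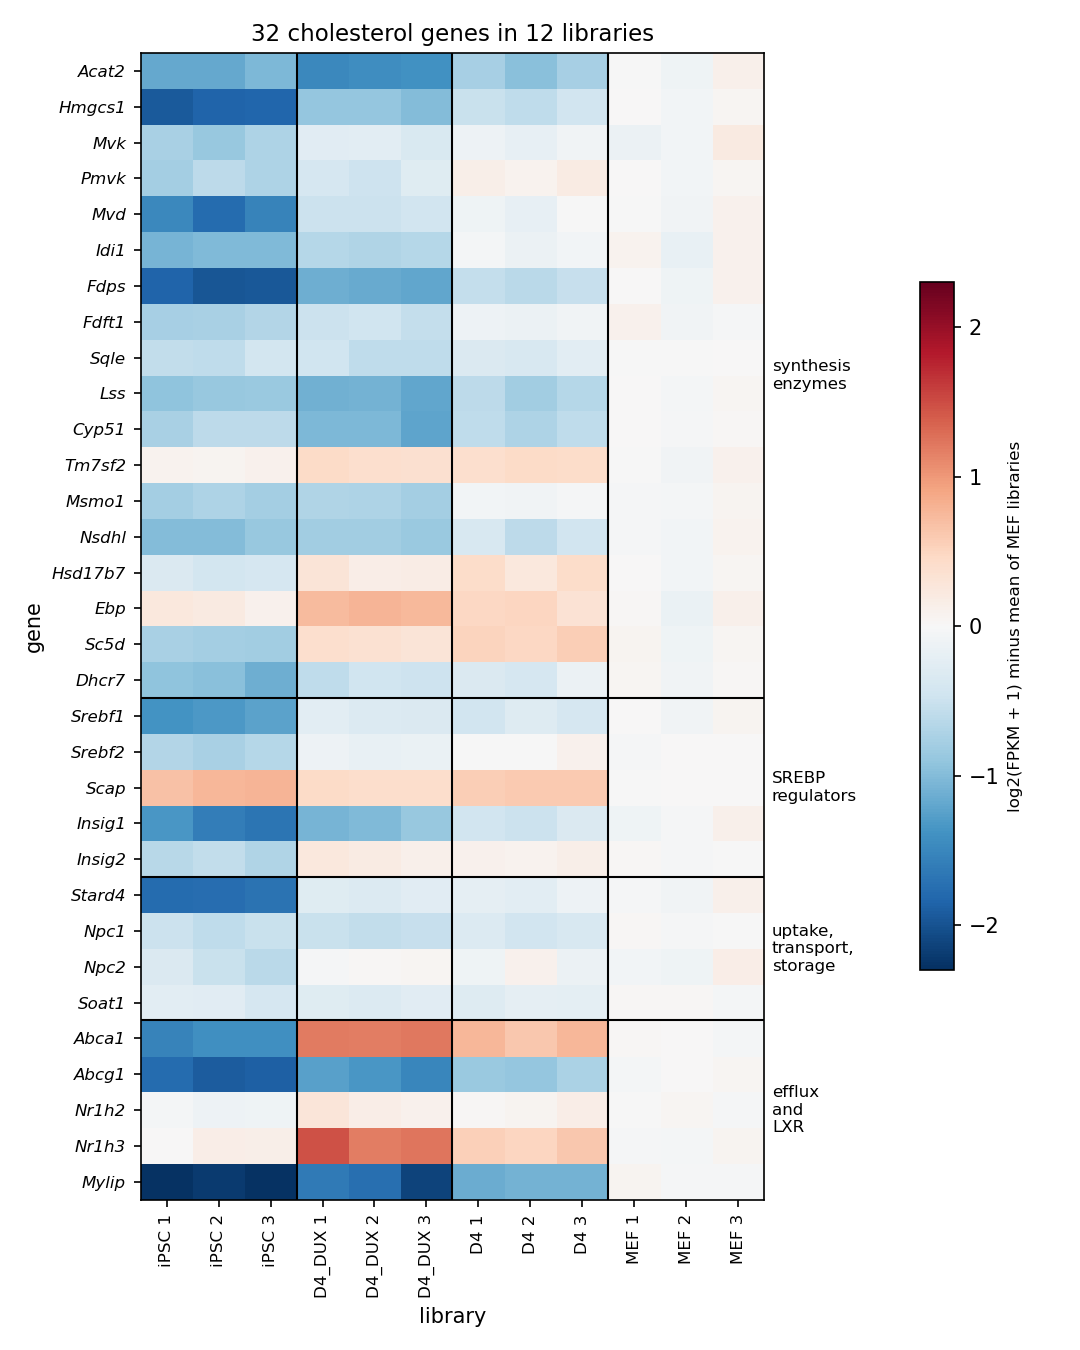
Level of each of the 32 genes in each of the 12 libraries, with genes in rows by role, libraries in columns by group, and colour giving log2(FPKM + 1) minus the mean of the gene's 3 MEF libraries (blue lower, red higher). Most synthesis rows are blue in the iPSC and D4_DUX columns, whereas Tm7sf2 and Ebp are blue in neither and Hsd17b7 and Sc5d only in iPSC, and Abca1 and Nr1h3 are reddest in the D4_DUX columns.

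The first comparison asked what differed between the D4_DUX and D4 cultures at the same day. Synthesis enzymes were lower in D4_DUX: 14 of 18 fell, 1 rose and 3 did not pass the test, against 15.4% of all 17114 genes tested that fell and 20.1% that rose (35.4% in either direction). The median log2 fold change of the 18 was -0.38, against 0.02 over all genes. The pathway was lower from its first steps: 6 of 7 genes from acetoacetyl-CoA to farnesyl diphosphate fell, with a median of -0.51 over the 7. All 3 from squalene to lanosterol fell, with a median of -0.38. Of the 8 after lanosterol 5 fell and 1 rose, with a median of -0.20 over the 8. This split into stages was made after the values had been seen. Log2 fold changes here are differences of log2(FPKM + 1), which understate the change of genes at low FPKM. Lack of overlap between groups is a description only, since its share over all genes tested was not counted.

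Msmo1, the sterol methyl oxidase at chr8:64718139-64733792, had the largest change among the enzymes. It was at 7.04, 6.9 and 6.51 FPKM in D4_DUX libraries, against 11.4, 11.3 and 11.7 FPKM in D4 libraries. The D4_DUX libraries lay below all D4 libraries and overlapped the iPSC libraries, which were at 6.54, 6.92 and 6.53 FPKM. The log2 fold change was -0.68 ± 0.04 (SE; limma adjusted p = 8.61e-07, n = 3 each).

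Both enzymes at the entry to the pathway fell. Acat2, the cytosolic thiolase that joins acetyl-CoA units, was at 11.1, 11.5 and 11.9 FPKM in D4_DUX, against 18.8, 16.4 and 18.8 FPKM in D4 (-0.60 ± 0.07, limma adjusted p = 6.79e-05). Hmgcs1, the HMG-CoA synthase at chr13:119690379-119708260 whose window holds the sterol element core, was at 23.5, 23.5 and 21.8 FPKM in D4_DUX, against 30.8, 29.6 and 32.8 FPKM in D4 (-0.42 ± 0.05, limma adjusted p = 8.15e-05). Neither gene had overlapping groups. Of the genes that carry mevalonate to farnesyl diphosphate, the isomerase Idi1 (-0.59), farnesyl diphosphate synthase Fdps (-0.59), the kinase Pmvk (-0.51) and the decarboxylase Mvd (-0.38) fell, all without overlap. Mevalonate kinase, Mvk, averaged 8.03 ± 0.366 FPKM in D4_DUX and 9.04 ± 0.346 FPKM in D4 (SD, n = 3 each) and did not pass the test (-0.15, limma adjusted p = 0.154). It was called lower in a fit of only the 2 groups (limma adjusted p = 0.0453).

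The later steps held enzymes that fell, enzymes that did not pass and 1 that rose. Squalene synthase Fdft1 (-0.38), squalene epoxidase Sqle (-0.24) and lanosterol synthase Lss (-0.44) fell, as did the lanosterol demethylase Cyp51 (-0.46), the sterol dehydrogenase Nsdhl (-0.35) and the desaturase Sc5d (-0.18). Dhcr7, which makes the last double-bond reduction, averaged 4.32 ± 0.253 FPKM in D4_DUX and 5.19 ± 0.583 FPKM in D4 (-0.21 ± 0.08, limma adjusted p = 0.0462). That call held without D4 replicate 2 but not without any other of the 6 libraries: the adjusted p was 0.0622 without D4 replicate 1, 0.165 without D4 replicate 3, and 0.151, 0.0639 and 0.0771 without D4_DUX replicates 1, 2 and 3. It was also lost with a pseudocount of 0.1 (0.0545), with no filter (0.101), after rescaling to TPM (0.0707) and in a fit of only the 2 groups (0.0898). The sterol reductase Tm7sf2 (-0.03) and the ketoreductase Hsd17b7 (-0.16, limma adjusted p = 0.0567) did not pass the test. Hsd17b7 passed without D4 replicate 2 (adjusted p = 0.015) and without D4_DUX replicate 1 (0.031), with median-ratio scaling (0.0326) and with quantile normalization (0.0292).

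Ebp, the sterol isomerase encoded at chrX:8185329-8193512, went against its neighbours in the pathway. It was at 15.8, 16.5 and 16 FPKM in D4_DUX libraries, against 13.2, 13.3 and 11.9 FPKM in D4 libraries. All 3 D4_DUX values lay above all 3 D4 values, and the log2 fold change was 0.31 ± 0.07 (limma adjusted p = 0.00509). Its window holds a CCAAT box and a GC box, as those of most enzymes that fell do.

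**Figure D2:**
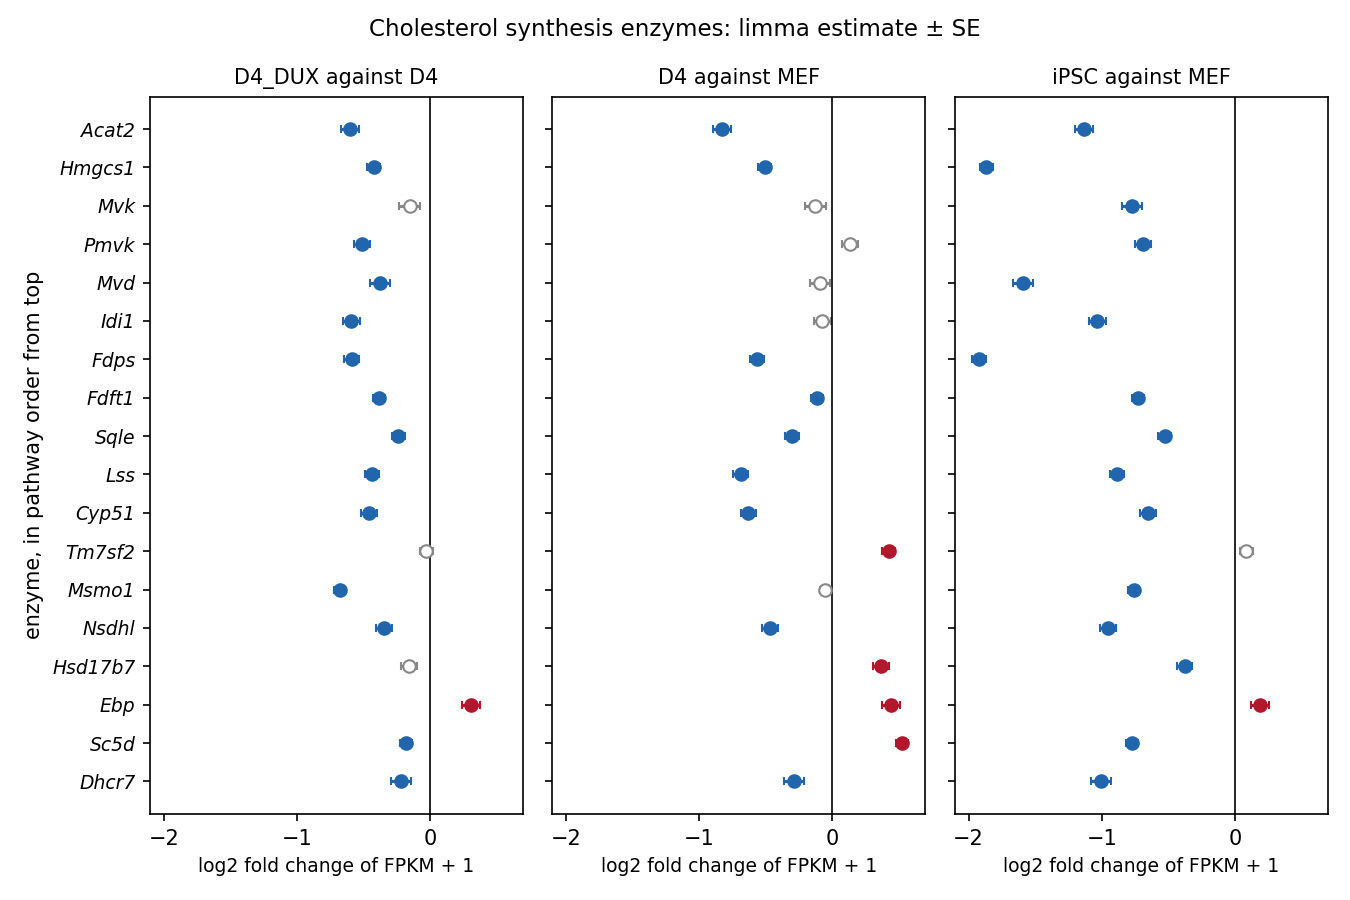
Log2 fold change of FPKM + 1 with its SE for the 18 synthesis enzymes in pathway order from the top, with 1 panel for D4_DUX against D4, another for D4 against MEF and a last for iPSC against MEF; blue points passed the test as lower, red points as higher, and open grey points did not pass. In D4_DUX against D4 the blue points lie between -0.68 (Msmo1) and -0.18 (Sc5d), and Ebp at 0.31 is the red point.

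Of the 5 SREBP regulators, 3 fell in D4_DUX and none rose, against 15.4% and 20.1% of all genes tested. Insig1, the membrane anchor at chr5:28071363-28078662 that is itself an SREBP target, had the largest change of the 5. It was at 10.9, 11.3 and 12.6 FPKM in D4_DUX libraries, against 17.4, 16.6 and 18.7 FPKM in D4 libraries. The groups did not overlap (-0.56 ± 0.09, limma adjusted p = 0.000792).

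The SREBP2 factor and its escort also fell, by smaller amounts. Srebf2, the gene of SREBP2 at chr15:82147181-82205379, was at 34.6, 33 and 33.6 FPKM in D4_DUX, against 37.1, 37.1 and 40.1 FPKM in D4 (-0.17 ± 0.04, limma adjusted p = 0.00556). Scap, the escort protein, was at 14.4, 13.9 and 14 FPKM in D4_DUX, against 15.8, 16.1 and 16.2 FPKM in D4 (-0.17 ± 0.03, limma adjusted p = 0.0021). Both differences were small but wider than the spread of the libraries. Srebf1, the gene of the SREBP1 factors and a known LXR target, was at 20.5, 19.3 and 19.1 FPKM in D4_DUX, against 17.6, 19.6 and 18.5 FPKM in D4, with overlapping groups (0.08, limma adjusted p = 0.285). Insig2, the anchor that does not depend on SREBP, did not pass either (0.07, limma adjusted p = 0.224). In every group Srebf2 had the highest FPKM of the 5 regulators, with no overlap with the next gene.

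**Figure D3:**
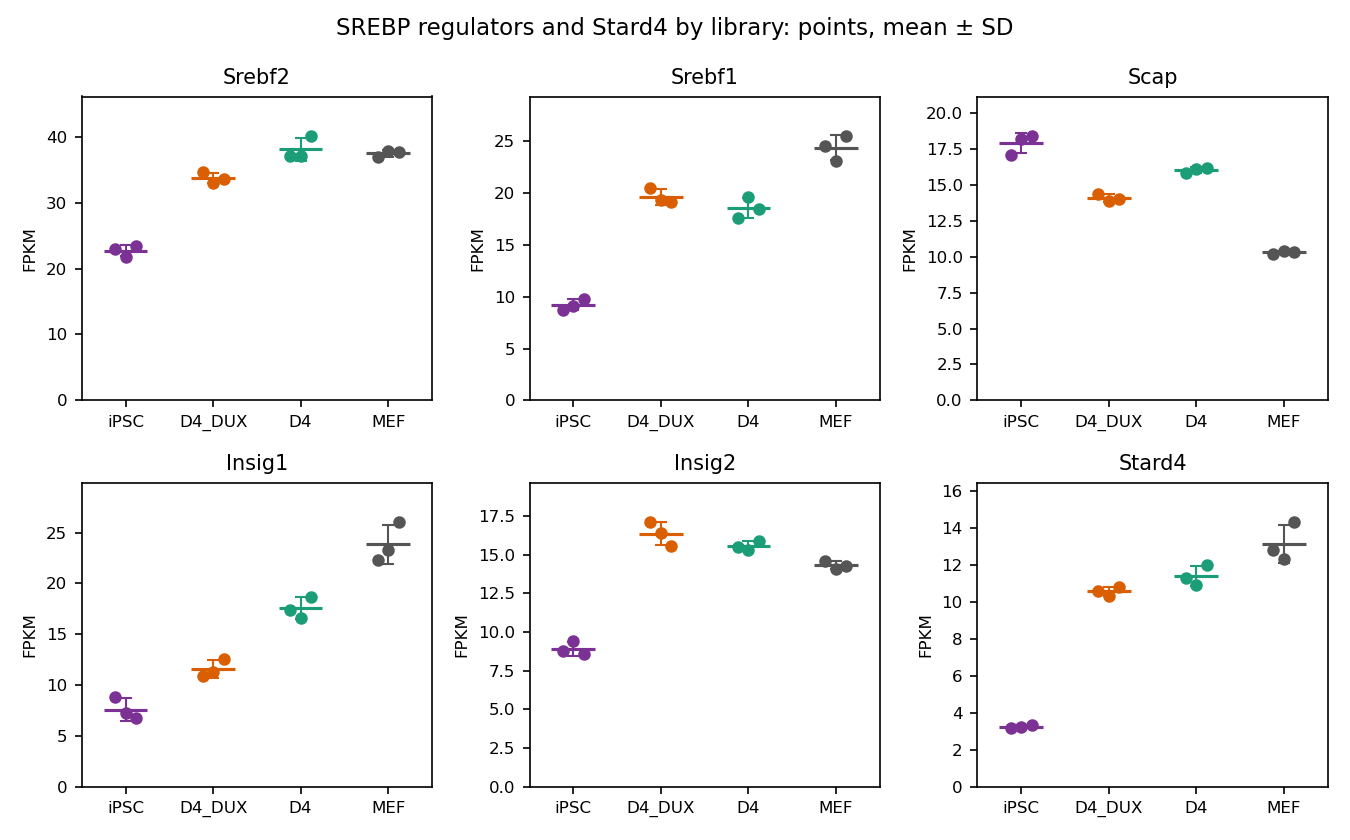
FPKM of the 5 SREBP regulators and Stard4 in every library, with the mean and SD of each group, for iPSC, D4_DUX, D4 and MEF from left to right. Insig1 averages 7.58 FPKM in iPSC, 11.6 in D4_DUX, 17.6 in D4 and 23.9 in MEF, while Srebf2 in D4_DUX, D4 and MEF lies between 33 and 40.1 FPKM.

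Of the 4 genes of uptake, transport and storage, 1 fell in D4_DUX and 3 did not pass. Of all genes tested 15.4% fell, and 35.4% were called in either direction. Npc1, which moves cholesterol out of lysosomes, was at 6.86, 6.59 and 6.83 FPKM in D4_DUX, against 8.08, 7.28 and 7.74 FPKM in D4 (-0.16 ± 0.04, limma adjusted p = 0.012). Without D4 replicate 1 the adjusted p was 0.052, and no member of the group was then called. Its soluble partner Npc2, which had the highest mean FPKM of the 4 genes in every group, was at 76.4 ± 2.09 FPKM in D4_DUX and 73.3 ± 6.53 FPKM in D4 (SD), with overlapping groups. The sterol carrier Stard4 (-0.09, limma adjusted p = 0.204) and the esterifying enzyme Soat1 (-0.04, limma adjusted p = 0.521) did not pass.

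The 5 efflux and LXR genes split in D4_DUX: 2 rose, 2 fell and 1 did not pass, against 20.1% of all genes tested that rose and 15.4% that fell. Their median log2 fold change was 0.10, against 0.02 over all genes. Abca1, the exporter at chr4:53030787-53159895 that loads cholesterol onto apolipoprotein particles, was at 49.3, 48.3 and 49.6 FPKM in D4_DUX libraries, against 35.9, 32.8 and 36.3 FPKM in D4 libraries. The 3 D4_DUX values were the highest Abca1 values of the 12 libraries (0.48 ± 0.05, limma adjusted p = 2.12e-05). Nr1h3, which encodes LXRα at chr2:91184061-91202834, was at 3.31, 2.52 and 2.67 FPKM in D4_DUX, against 1.28, 1.19 and 1.41 FPKM in D4. Its ratio of mean FPKM was 2.19, and all D4_DUX libraries lay above all D4 libraries (0.74 ± 0.08, limma adjusted p = 4.14e-05). Nr1h3 entered the test through the D4_DUX and D4 libraries, since it was below 1 FPKM in all iPSC and MEF libraries.

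The other exporter and the ligase moved in the opposite direction. Abcg1, at chr17:31057675-31117988, was at 1.65, 1.49 and 1.23 FPKM in D4_DUX, against 2.47, 2.4 and 2.78 FPKM in D4 (-0.53 ± 0.07, limma adjusted p = 0.000225). Mylip, at chr13:45389742-45412022, was at 5.12, 4.69 and 3.34 FPKM in D4_DUX, against 7.56, 7.93 and 7.89 FPKM in D4 (-0.72 ± 0.10, limma adjusted p = 0.000278). Neither had overlapping groups, and Mylip varied more among the D4_DUX libraries than among the D4 libraries. Nr1h2, the widely expressed LXRβ, was at 27.8, 25.5 and 24.4 FPKM in D4_DUX, against 23.2, 23.8 and 25.5 FPKM in D4, with overlap (0.10, limma adjusted p = 0.151). With genes required to reach 5 FPKM in 3 libraries, Nr1h3 left the test, 1 of the remaining 4 genes rose, and their median was -0.22.

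**Figure D4:**
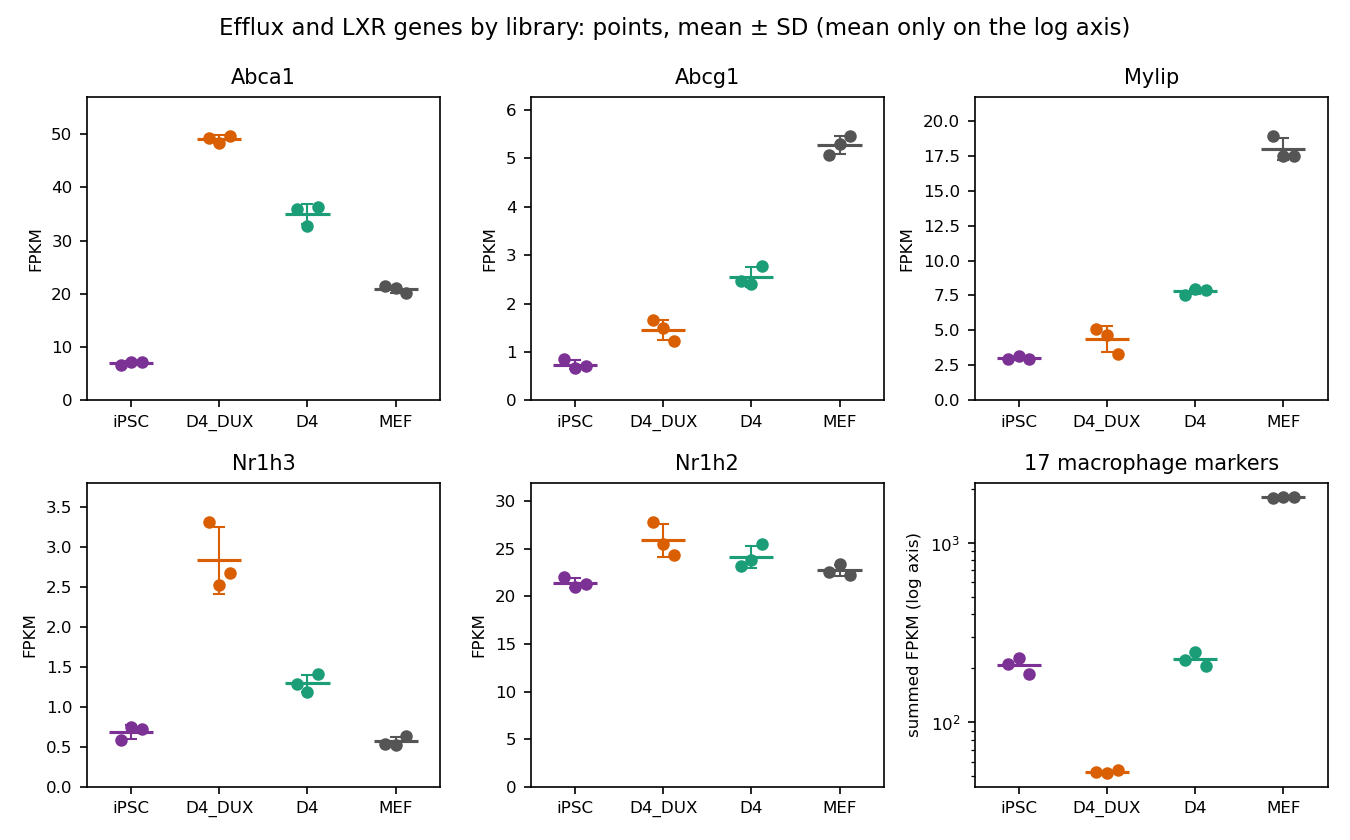
FPKM of the efflux and LXR genes in every library, with the mean and SD of each group, for iPSC, D4_DUX, D4 and MEF from left to right. Abca1 and Nr1h3 are highest in D4_DUX, at 49.1 and 2.83 FPKM on average, whereas Abcg1 and Mylip are highest in MEF, at 5.28 and 18 FPKM; the last panel gives the summed FPKM of the 17 macrophage markers on a log axis, without SD, lowest in D4_DUX and highest in MEF.

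Set side by side, the 23 genes of synthesis and SREBP regulation had 17 lower and 1 higher in D4_DUX than in D4, with a median of -0.35, and the 5 efflux and LXR genes had 2 lower and 2 higher. Of all genes tested 15.4% fell and 20.1% rose. The difference between both sides was not tested. Markers of cell types and of the cell cycle also differed between D4_DUX and D4. All 17 macrophage markers fell, with a median of -1.30, and 7 of them were below 1 FPKM in D4_DUX, against 2 in D4. Of the fibroblast markers 7 of 10 fell, and of 8 cell cycle genes 7 fell, to a sum of 119.6 to 122.6 FPKM in D4_DUX, against 143.1 to 146 FPKM in D4. Their part in the changes of the 32 genes was not tested.

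Other genes of the pathway were read from lists beside the members. Of 8 genes of SREBP processing and sterol sensing, 1 rose and 3 fell in D4_DUX, against 20.1% and 15.4% of all genes tested. Their median log2 fold change was 0.01, against 0.02 over all genes. Tmem97, a sterol-responsive membrane protein, averaged 19.6 ± 1.41 FPKM in D4_DUX and 26.5 ± 1.76 FPKM in D4 (-0.42, limma adjusted p = 0.000397). Erlin1 (-0.18) and the protease gene Mbtps2 (-0.12) fell, and Mbtps1, the gene of the other SREBP protease, rose (0.12). Of the 8 genes of the isoprenoid branch, which uses farnesyl diphosphate for prenyl groups, dolichol and ubiquinone, none passed the test in either direction at limma's adjusted p, 2 had an unadjusted p under 0.05, and their log2 fold changes ran from -0.11 (Nus1) to 0.10 (Coq2).

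The second comparison set day 4 of reprogramming against the starting fibroblasts. It shares the D4 libraries with the first comparison, so their values are not independent. Synthesis enzymes went both ways: 9 of 18 fell and 4 rose, against 27.6% of all genes tested that fell and 34.2% that rose (61.8% in either direction), with a median of -0.12 against 0.03 over all genes. The stages differed in their counts. Of the 7 genes up to farnesyl diphosphate 3 fell and none rose, all 3 from squalene to lanosterol fell, and of the 8 after lanosterol 3 fell and 4 rose.

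Acat2 fell most among the enzymes. It was at 18.8, 16.4 and 18.8 FPKM in D4, against 32.4, 30.4 and 35.4 FPKM in MEF (-0.83 ± 0.07, limma adjusted p = 7.99e-07). Lss (-0.69), Cyp51 (-0.63), Fdps (-0.57), Hmgcs1 (-0.51), Nsdhl (-0.47), Sqle (-0.30) and Dhcr7 (-0.29) also fell, and so did Fdft1 (-0.11, limma adjusted p = 0.0479). The Fdft1 call was lost without MEF replicate 1 (adjusted p = 0.205) or 3 (0.0606) and without D4 replicate 1 (0.108), 2 (0.118) or 3 (0.055). It was also lost with no filter (0.0837), after rescaling to TPM (0.0633) and in a fit of only the 2 groups (0.0888).

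The 4 enzymes that rose all act after lanosterol. Sc5d, the desaturase, was at 21.7, 21.2 and 22.4 FPKM in D4, against 15.5, 13.9 and 15.3 FPKM in MEF (0.52 ± 0.05, limma adjusted p = 1.23e-06). Ebp (0.44), Tm7sf2 (0.42) and Hsd17b7 (0.36) also rose, all without overlap. Msmo1, the enzyme with the largest drop in D4_DUX, was at 11.4, 11.3 and 11.7 FPKM in D4, against 11.8, 11.6 and 12.5 FPKM in MEF, and did not pass (-0.05, limma adjusted p = 0.281). With median-ratio scaling (-0.10, limma adjusted p = 0.0433) and quantile normalization (-0.11, limma adjusted p = 0.0375) Msmo1 was called lower. Mvk, Pmvk, Mvd and Idi1 did not pass either. Mvk was called lower with quantile normalization (-0.20, limma adjusted p = 0.0461). Pmvk was called higher in a fit of only the 2 groups (0.13, limma adjusted p = 0.0377). Idi1 passed without MEF replicate 2 (-0.16, limma adjusted p = 0.00624).

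The regulators also split in D4 against MEF. Scap rose, at 15.8, 16.1 and 16.2 FPKM in D4, against 10.2, 10.4 and 10.3 FPKM in MEF (0.59 ± 0.03, limma adjusted p = 3.08e-08). Insig1 fell, at 17.4, 16.6 and 18.7 FPKM in D4, against 22.3, 23.3 and 26 FPKM in MEF (-0.42 ± 0.09, limma adjusted p = 0.0017). Srebf1 fell (-0.38), and Srebf2, at 38.1 ± 1.74 FPKM in D4 and 37.5 ± 0.478 FPKM in MEF (SD), had overlapping groups. Insig2 was called higher by a small amount (0.11, limma adjusted p = 0.039), and the call was lost without MEF replicate 1 (adjusted p = 0.0542), 2 (0.105) or 3 (0.0828) and without D4 replicate 1 (0.0765) or 3 (0.113). Median-ratio scaling (0.06, limma adjusted p = 0.26) and quantile normalization (0.04, limma adjusted p = 0.46) ended it too, as did no filter (0.0591) and rescaling to TPM (0.0653).

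Npc1 (-0.37), Soat1 (-0.24) and Stard4 (-0.19) fell in D4, and Npc2 had overlapping groups (-0.05). Npc1 was at 8.08, 7.28 and 7.74 FPKM in D4, against 10.5, 10.1 and 10.2 FPKM in MEF. Of the efflux and LXR genes, Abca1 rose, Abcg1 and Mylip fell, and Nr1h3 was higher in every D4 library than in any MEF library. Abca1 was at 35.9, 32.8 and 36.3 FPKM in D4, against 21.4, 21.1 and 20.1 FPKM in MEF (0.72 ± 0.05, limma adjusted p = 8.31e-08). Nr1h3 was at 1.28, 1.19 and 1.41 FPKM in D4, against 0.534, 0.525 and 0.636 FPKM in MEF (0.55 ± 0.08). It passed the filter on low values only through the D4 and D4_DUX libraries, so no test of it is given for D4 against MEF.

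The ligase and the other exporter were lower at day 4. Mylip had the largest change of the 32 genes on the log2(FPKM + 1) scale in D4 against MEF, at 7.56, 7.93 and 7.89 FPKM in D4, against 18.9, 17.5 and 17.5 FPKM in MEF (-1.11 ± 0.10, limma adjusted p = 1.83e-06). Abcg1 was at 2.47, 2.4 and 2.78 FPKM in D4, against 5.08, 5.3 and 5.46 FPKM in MEF (-0.82 ± 0.07, limma adjusted p = 1.23e-06). Nr1h2 had overlapping groups (0.08, limma adjusted p = 0.181). All 17 macrophage markers fell in D4 with a median of -2.01, and 8 of 10 fibroblast markers and all 8 cell cycle genes fell. Among the macrophage markers, Ptprc and Mrc1 passed the filter on low values only through the MEF libraries, which limits their calls. Of all genes tested 27.6% fell. The part of these markers was not tested.

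The third comparison set pluripotent cells against fibroblasts, where most of the transcriptome differed. Of the synthesis enzymes 16 of 18 were lower in iPSC and 1 was higher, against 31.2% of all genes tested that were lower and 51.0% that were higher (82.2% in either direction). The median of the enzymes was -0.77, against 0.21 over all genes. With median-ratio scaling the medians were -0.99 for the enzymes and 0.03 for all genes, and with quantile normalization -1.05 and -0.07. Of all called genes 62.1% were higher in iPSC, against 51.5% with median-ratio scaling and 46.6% with quantile normalization.

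Fdps had the largest change of the enzymes, at 4.52, 4.06 and 4.16 FPKM in iPSC, against 18.9, 17.5 and 20.3 FPKM in MEF (-1.92 ± 0.05, limma adjusted p = 2.44e-11). Hmgcs1 was at 10.9, 11.7 and 11.9 FPKM in iPSC, against 44.9, 42.8 and 46.2 FPKM in MEF (-1.87 ± 0.05, limma adjusted p = 1.26e-11). Its place among the enzymes differed too: Hmgcs1 had the highest mean FPKM of the 18 in D4_DUX, D4 and MEF, and stood in place 4 in iPSC, where Cyp51 led at 18.2 ± 1.06 FPKM (SD) and Hmgcs1 overlapped Ebp, the next gene. Mvd (-1.59), Acat2 (-1.14), Idi1 (-1.03) and Dhcr7 (-1.01) were lower by more than 1 on the log2 scale. The other enzymes that fell were between -0.96 (Nsdhl) and -0.38 (Hsd17b7).

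Ebp was the enzyme called higher, at 11.1, 10.7 and 9.94 FPKM in iPSC, against 9.36, 8.18 and 10.1 FPKM in MEF, with overlapping groups (0.19 ± 0.07, limma adjusted p = 0.0262). The call was lost without MEF replicate 2 (adjusted p = 0.117) and without iPSC replicate 1 (0.0909) or 2 (0.0663) and in a fit of only the 2 groups (0.0684), and the sign turned with median-ratio scaling (-0.03) and quantile normalization (-0.09). Tm7sf2, the enzyme with the lowest mean FPKM in every group, did not pass (0.09, limma adjusted p = 0.14). It was called higher without MEF replicate 3 (0.13, limma adjusted p = 0.0359), and its sign turned with both scalings, to -0.07 and -0.21.

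Among the regulators 4 were lower in iPSC and Scap was higher, against 31.2% of all genes tested that were lower and 51.0% that were higher. Insig1 was at 8.81, 7.2 and 6.73 FPKM in iPSC, against 22.3, 23.3 and 26 FPKM in MEF (-1.54 ± 0.09, limma adjusted p = 1.32e-08). Srebf1 was at 8.76, 9.11 and 9.8 FPKM in iPSC, against 24.5, 23.1 and 25.5 FPKM in MEF (-1.31 ± 0.05, limma adjusted p = 4.78e-10). Srebf2 was at 23, 21.8 and 23.4 FPKM in iPSC, against 36.9, 37.8 and 37.7 FPKM in MEF (-0.70 ± 0.04, limma adjusted p = 7.53e-09). None of these 3 genes had overlapping groups. Insig2 fell too (-0.63), and Scap averaged 17.9 ± 0.689 FPKM in iPSC and 10.3 ± 0.0956 FPKM in MEF (SD; 0.74, limma adjusted p = 1.15e-09).

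All 4 genes of uptake, transport and storage were lower in iPSC than in MEF. Of all genes tested 31.2% were lower, and 82.2% were called in either direction. Stard4 had the largest drop, at 3.16, 3.21 and 3.33 FPKM in iPSC, against 12.8, 12.3 and 14.3 FPKM in MEF (-1.73 ± 0.05, limma adjusted p = 4.88e-11). Npc1 (-0.53), Npc2 (-0.49) and Soat1 (-0.30) fell by less. Of the efflux and LXR genes 3 fell and none rose. Abca1 was at 6.57, 7.18 and 7.18 FPKM in iPSC, against 21.4, 21.1 and 20.1 FPKM in MEF (-1.45 ± 0.05, limma adjusted p = 5.28e-11). Abcg1 was at 0.846, 0.659 and 0.712 FPKM in iPSC, against 5.08, 5.3 and 5.46 FPKM in MEF (-1.85 ± 0.07, limma adjusted p = 3.01e-10).

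Mylip had the largest log2 fold change of the 32 genes on the log2(FPKM + 1) scale, at 2.93, 3.14 and 2.92 FPKM in iPSC, against 18.9, 17.5 and 17.5 FPKM in MEF (-2.25 ± 0.10, limma adjusted p = 1.09e-09). On the ratio of mean FPKM Abcg1, at 0.14, lay below Mylip, at 0.167, and with a pseudocount of 0.1 the log2 fold changes were -2.69 for Abcg1 and -2.55 for Mylip. The receptors did not pass. Nr1h3 was at 0.579, 0.744 and 0.723 FPKM in iPSC, against 0.534, 0.525 and 0.636 FPKM in MEF (0.10, limma adjusted p = 0.236). Nr1h2 was at 22, 21 and 21.3 FPKM in iPSC, against 22.6, 23.4 and 22.3 FPKM in MEF (-0.08, limma adjusted p = 0.136). Nr1h2 was called lower with median-ratio scaling (-0.32, limma adjusted p = 8.86e-05) and quantile normalization (-0.32, limma adjusted p = 0.0001), and with the second all 5 efflux and LXR genes were. In iPSC 9 of 10 fibroblast markers fell, 16 of 17 macrophage markers fell, and 6 of 8 cell cycle genes were higher. The 16 include Ptprc and Mrc1, which passed the filter on low values only through the MEF libraries. Of all genes tested 31.2% were lower and 51.0% higher. The part of the markers in these values was not tested.

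The iPSC libraries were also set against D4, a comparison that shares libraries with each of the others. Of the synthesis enzymes 17 of 18 were lower in iPSC and none was higher, against 33.9% of all genes tested that were lower and 48.5% that were higher (82.4% in either direction), with a median of -0.67 against 0.16 over all genes. Of all called genes 58.8% were higher, against 50.9% with median-ratio scaling and 46.7% with quantile normalization. Mvd (-1.50), Hmgcs1 (-1.36), Fdps (-1.35) and Sc5d (-1.29) fell most. Mvd, the largest of these, was at 7.22, 5.73 and 6.83 FPKM in iPSC, against 20.4, 19.1 and 21.8 FPKM in D4. Cyp51 was at 16.9, 18.7 and 18.9 FPKM in iPSC, against 19, 17.3 and 19 FPKM in D4, with overlapping groups (-0.02, limma adjusted p = 0.764). It was called lower with median-ratio scaling (-0.20, limma adjusted p = 0.0113) and quantile normalization (-0.19, limma adjusted p = 0.0121).

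All 5 efflux and LXR genes were lower in iPSC than in D4, against 33.9% of all genes tested. Their median was -1.03, against 0.16 over all genes. Abca1 had the largest change of the 32 genes in that comparison, at a ratio of mean FPKM of 0.199 (-2.17 ± 0.05, limma adjusted p = 1.69e-12). Mylip (-1.14), Abcg1 (-1.03), Nr1h3 (-0.45) and Nr1h2 (-0.16) were also lower. Of these, Nr1h3 passed the filter on low values only through the D4 and D4_DUX libraries, which limits its call here. Among the regulators Insig1 (-1.12), Srebf1 (-0.93), Insig2 (-0.74) and Srebf2 (-0.72) were lower. Scap was called higher (0.15, limma adjusted p = 0.00123), but the sign turned with median-ratio scaling (-0.03) and quantile normalization (-0.02). Of the 4 transport genes Stard4 (-1.54), Npc2 (-0.44) and Npc1 (-0.16) were lower, and Soat1 (-0.06) did not pass. Soat1 was called lower with median-ratio scaling (-0.23, limma adjusted p = 0.000534) and quantile normalization (-0.27, limma adjusted p = 0.000168). In iPSC 9 of 10 fibroblast markers were lower than in D4, 10 of 17 macrophage markers were lower and 5 higher, and all 8 cell cycle genes were higher. Their part was not tested here either.

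Several members share exon sequence with other annotated genes, and reads could be divided between them, so their levels are uncertain. Fdps overlaps the predicted gene Gm43738 on the same strand for 929 bp, and that gene averaged 13.7 FPKM in D4_DUX and 20.3 FPKM in D4. Acat2 shares a stretch of 1477 bp with its copy Acat3, and another of 445 bp with Tcp1 on the opposite strand. Tcp1 averaged 74.9 FPKM in iPSC, 52 FPKM in D4_DUX, 52.6 FPKM in D4 and 56.5 FPKM in MEF. Hmgcs1, Fdft1, Idi1, Npc1 and Scap overlap genes on the opposite strand, Tm7sf2 overlaps Vps51 on the same strand, and Fdft1, Fdps and Idi1 also have processed pseudogenes. The libraries were made with a stranded kit, but the sources used here do not give whether strand was used in counting. The values of Msmo1, Insig1, Srebf2, Abca1, Abcg1, Nr1h3 and Mylip carry no such limit at 300 bp and 95% identity.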

How the data were processed

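The authors deposited gene levels as FPKM (fragments counted for a gene, divided by its length and by the library total) in 1 table, with 1 column for each of the 12 libraries. Per the submitters' processing notes the build was mm10. The sources used here name no aligner, counter or annotation. Of 40384 IDs, 40225 (99.6%) matched GENCODE M21 (GRCm38). Depth was estimated from the FPKM steps of low genes, of which 36.4 to 46.8% were whole within 0.01 fragments, too few to recover counts.

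The 17114 genes that reached 1 FPKM in 3 or more libraries were tested on log2(FPKM + 1) with limma 3.58.1 in R 4.3.3, with 4 group means over all 12 libraries and a variance prior following mean level. Calls were made at a Benjamini-Hochberg adjusted p of 0.05 over all genes tested. On simulated data, 190 of 200 genes changed 2-fold in FPKM + 1, not in FPKM itself, were recovered in D4_DUX against D4. No 2 libraries were identical (0 of 66 pairs).

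The 32 members, the lists of other pathway genes and the markers were chosen with earlier results of these data known. Every member is accounted for. Values per library are given for the largest change in each role and comparison and for the main regulators and exporters, and other genes named for their values were chosen after those were seen. The alternatives were other pseudocounts, filters and scalings, a replicate block, a fit to only the 2 groups compared, and leaving out each library. Motifs were searched in RefSeq promoter windows (GRCm38.p6). Shared exon stretches were found with BLAST+ 2.17.0.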

Additional observations from a re-analysis of the deposited data

How the results depend on the processing

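Of the 128 results for a member in a comparison, 109 kept their direction and side of the threshold under every alternative run. Counts of synthesis enzymes called lower ranged over the leave-one-out fits from 13 to 15 in D4_DUX against D4, 8 to 10 in D4 against MEF, 16 in iPSC against MEF and 17 in iPSC against D4. Synthesis enzymes called higher in iPSC against MEF ranged from 0 to 2 over those fits, and were 0 with median-ratio scaling, quantile normalization and only the 2 groups. With FPKM of at least 5, genes called were 9183 in iPSC against D4 and 9188 in iPSC against MEF, against 14095 and 14068, since fewer genes were tested. With the same filter 1 efflux or LXR gene was higher in D4_DUX against D4 and 1 in D4 against MEF, and the group's medians turned, to -0.22 and -0.37. With quantile normalization 5 efflux and LXR genes were lower in iPSC against MEF.

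Other signs turned as well. In D4 against MEF they were those of Srebf2 (-0.030 with median-ratio scaling, -0.073 with quantile normalization, and -0.013 to 0.042 over the leave-one-out fits, the lowest without D4 replicate 3), the regulators' median (-0.073 with quantile normalization) and Npc2 (-0.116 to 0.033 over the leave-one-out fits, above 0 without MEF replicate 3 and, at 0.0014, without D4 replicate 3). In iPSC against D4 they were those of Scap (-0.027 and -0.025 with both scalings) and Cyp51 (-0.062 to 0.027 over the leave-one-out fits, with 0.0016 and 0.0012 without D4 replicates 1 and 3 and the highest without iPSC replicate 1). In iPSC against MEF they were those of Ebp (-0.035 and -0.085), Tm7sf2 (-0.068 and -0.21) and, with quantile normalization, Nr1h3 (-0.41). The cause was not tested.

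Libraries with the same replicate number did not deviate together (r from -0.146 to 0.062), and 4 of 12 correlated best with their own number. With a replicate block, 5677 genes were called in D4_DUX against D4, against 6066 without it, and the count of synthesis enzymes called lower was 14 with and without it. The genes were not the same: with the block Dhcr7 was lost (limma adjusted p = 0.0753) and Hsd17b7 gained (0.0219), and in D4 against MEF Fdft1 (0.0735) and Insig2 (0.0549) were lost. Counting error weighs on Nr1h3 and Abcg1, the members with values below 1 FPKM.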

Other observations

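Of 13 genes of fatty acid synthesis, a pathway driven in part by the SREBP1 factors, 5 fell and 1 rose in D4_DUX against D4, with a median log2 fold change of -0.17, against 15.4% of all genes tested that fell and 20.1% that rose. The desaturase Fads1 had the largest change, at 22.1 ± 0.712 FPKM in D4_DUX and 32.9 ± 0.0814 FPKM in D4 (SD, n = 3 each; -0.55, limma adjusted p = 7.78e-07). The elongase Elovl5 (-0.25) and the desaturase Scd2 (-0.22) fell, and Fasn, the fatty acid synthase, did not pass (0.12, limma adjusted p = 0.2). In iPSC against MEF 10 of the 13 fell and 2 rose, against 31.2% and 51.0% of all genes, and Scd2 averaged 39.7 ± 2.17 FPKM in iPSC and 333 ± 6.15 FPKM in MEF (-3.04, limma adjusted p = 1.58e-13).

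Of 18 further genes of sterol handling, 16 were tested, and 3 rose and 2 fell in D4_DUX against D4, a share near that of all genes (35.4% in either direction). Ch25h, which makes an oxysterol that holds SREBP back and activates LXR, averaged 21 ± 1.22 FPKM in D4_DUX and 33.7 ± 3.69 FPKM in D4 (-0.66, limma adjusted p = 0.000304). The lipoprotein receptor Scarb1 fell (-0.49), and the lipid transfer protein Pltp, a known LXR target, rose (0.30, limma adjusted p = 0.00387), as did Abca5 (0.27). In D4 against MEF, Abca5 averaged 8.62 ± 0.219 FPKM in D4 and 1.96 ± 0.104 FPKM in MEF (1.70, limma adjusted p = 6.83e-11). Soat2, the sterol-esterifying enzyme best known from liver and intestine, averaged 3.84 ± 0.494 FPKM in iPSC and 0.85 ± 0.0865 FPKM in MEF. It passed the filter on low values only through the iPSC libraries, so no test of it is given. In the isoprenoid branch, where no gene passed between D4_DUX and D4, 7 of 8 were higher in iPSC than in MEF, against 51.0% of all genes. The 7 include Pdss1, which passed the filter on low values only because of the iPSC libraries. Fntb, a subunit of protein farnesyltransferase, averaged 30.8 ± 0.818 FPKM in iPSC and 6.19 ± 0.419 FPKM in MEF (2.15, limma adjusted p = 4.52e-12).

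Over the 12 libraries, which fall into 4 groups, the tested genes most like Abca1 by Pearson r of log2(FPKM + 1) were Adgrg2 (0.9986), Irs1, Map4, Ak3 and Marveld1, and Insig2 was the member most like it (0.9650). Insig2 stood only at rank 473 among the tested genes. Mvd was the member most like Srebf2 (0.9895), at rank 6.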
